A study of Drosophila melanogaster with 3 samples.

Results

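The 10 genes described here encode the Drosophila Notch receptor (N), its ligands Delta (Dl) and Serrate (Ser), proteins that process or modify the receptor and ligands (aph-1, Psn, nct, fng and neur), and the nuclear proteins Su(H) and Hairless (H). They were chosen by name, out of 13945 protein-coding genes, and all 10 were found in the annotation. Every reproducible binding summit in a gene's body or within 5 kb of it was assigned to that gene, which gave 30 of 7248 summits. The series mapped the protein CG10669 along the genome by chromatin immunoprecipitation with sequencing (ChIP-seq), a method that recovers DNA attached to a protein and finds where in the genome it came from. There was 1 group of 3 biological replicates. Each was a sample of whole prepupae, of both sexes together, from a transgenic line in which CG10669 carried a GFP tag at its C-terminal end. No second genotype, stage or treatment was available for comparison, and an untagged line was not analysed here. The label for the antibody names CG10669 itself, so whether the tagged or also the untagged protein was recovered is unclear. Whole animals mix many tissues, so a weak signal in all cells and a strong one in a few cells cannot be told apart.

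Notch signalling passes information between touching cells. Delta or Serrate on one cell binds Notch on its neighbour, and the ubiquitin ligase Neuralized, the product of neur, promotes the endocytosis of the ligand that gives the pull on the receptor. Fringe, the product of fng, adds a sugar to Notch that favours its response to Delta over Serrate. The gamma-secretase complex, which contains Presenilin (Psn), Nicastrin (nct) and Aph-1, then releases the intracellular part of Notch. That part joins the DNA-binding protein Su(H) to switch on target genes, which Su(H) together with Hairless keeps off without a signal. In the fly the pathway is known for the wing margin, leg joints and sensory organs, structures that take shape around the onset of metamorphosis.

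CG10669 summits lay at the receptor gene, at both ligand genes, at fng, at neur and at 1 gene of the gamma-secretase complex, aph-1. The genes with most summits were fng with 10 and Ser with 8, followed by N with 4, Dl and aph-1 with 3 each and neur with 2. Su(H), H, Psn and nct had 0. Thus 6 of the 10 genes had a summit, beside 45.3% of all protein-coding genes by the same rule, and with so few genes that count is not far from the share over all genes. The strongest summit lay in neur, ranked 86 of 7248 by the deposited signal, and the next in signal were a pair just upstream of fng, ranked 160 and 251.

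The DNA at the strongest summits of N, Dl, Ser, aph-1 and neur, and at 2 summits upstream of fng, is shown so that the sites behind the values can be read. Each run is 200 bases of the plus strand of the dm6 genome around the summit, written 5′ to 3′, from the RefSeq Release 6 sequence. Capitals mark CACTG or its reverse complement CAGTG, extended to CAGTGTA where that longer word was present. These words are described with the sequence results.
neur, intron 1, chr3R:9031921-9032120: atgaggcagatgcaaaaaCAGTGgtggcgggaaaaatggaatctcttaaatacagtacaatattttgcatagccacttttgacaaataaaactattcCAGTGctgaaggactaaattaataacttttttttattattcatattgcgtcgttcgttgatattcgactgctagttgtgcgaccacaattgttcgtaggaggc
fng, 1439 bp upstream, chr3L:20950851-20951050: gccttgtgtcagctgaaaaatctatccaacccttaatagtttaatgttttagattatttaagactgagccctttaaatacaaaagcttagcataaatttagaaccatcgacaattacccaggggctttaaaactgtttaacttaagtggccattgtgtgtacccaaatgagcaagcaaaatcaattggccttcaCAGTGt
fng, 2165 bp upstream, chr3L:20951577-20951776: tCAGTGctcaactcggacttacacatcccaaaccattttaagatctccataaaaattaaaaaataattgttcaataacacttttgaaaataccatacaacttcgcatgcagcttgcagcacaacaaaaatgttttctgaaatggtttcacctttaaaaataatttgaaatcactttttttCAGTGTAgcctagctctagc
N, intron 5, chrX:3162421-3162620: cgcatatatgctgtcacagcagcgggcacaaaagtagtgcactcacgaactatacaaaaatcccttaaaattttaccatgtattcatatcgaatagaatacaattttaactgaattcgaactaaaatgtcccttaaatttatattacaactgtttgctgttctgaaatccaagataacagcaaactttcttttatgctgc
aph-1, upstream, chr2L:2765733-2765932: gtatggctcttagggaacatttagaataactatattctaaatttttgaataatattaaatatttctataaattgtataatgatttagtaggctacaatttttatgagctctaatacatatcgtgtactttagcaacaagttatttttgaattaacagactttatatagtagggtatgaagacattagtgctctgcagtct
Dl, intron 3, chr3R:19314385-19314584: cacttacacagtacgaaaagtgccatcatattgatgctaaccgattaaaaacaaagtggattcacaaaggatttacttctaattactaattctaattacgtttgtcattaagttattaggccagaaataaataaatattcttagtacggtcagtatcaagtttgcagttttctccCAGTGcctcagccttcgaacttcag
Ser, intron 4, chr3R:27186294-27186493: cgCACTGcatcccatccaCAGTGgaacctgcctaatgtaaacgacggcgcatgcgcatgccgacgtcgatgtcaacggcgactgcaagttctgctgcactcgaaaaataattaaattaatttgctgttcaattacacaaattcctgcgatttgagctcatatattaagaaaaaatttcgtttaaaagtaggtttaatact
The neur window held CAGTG in both its left part and at the summit itself, and the Ser window held both orientations near its left end. The windows of N and aph-1 held neither orientation.

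**Figure D1:**
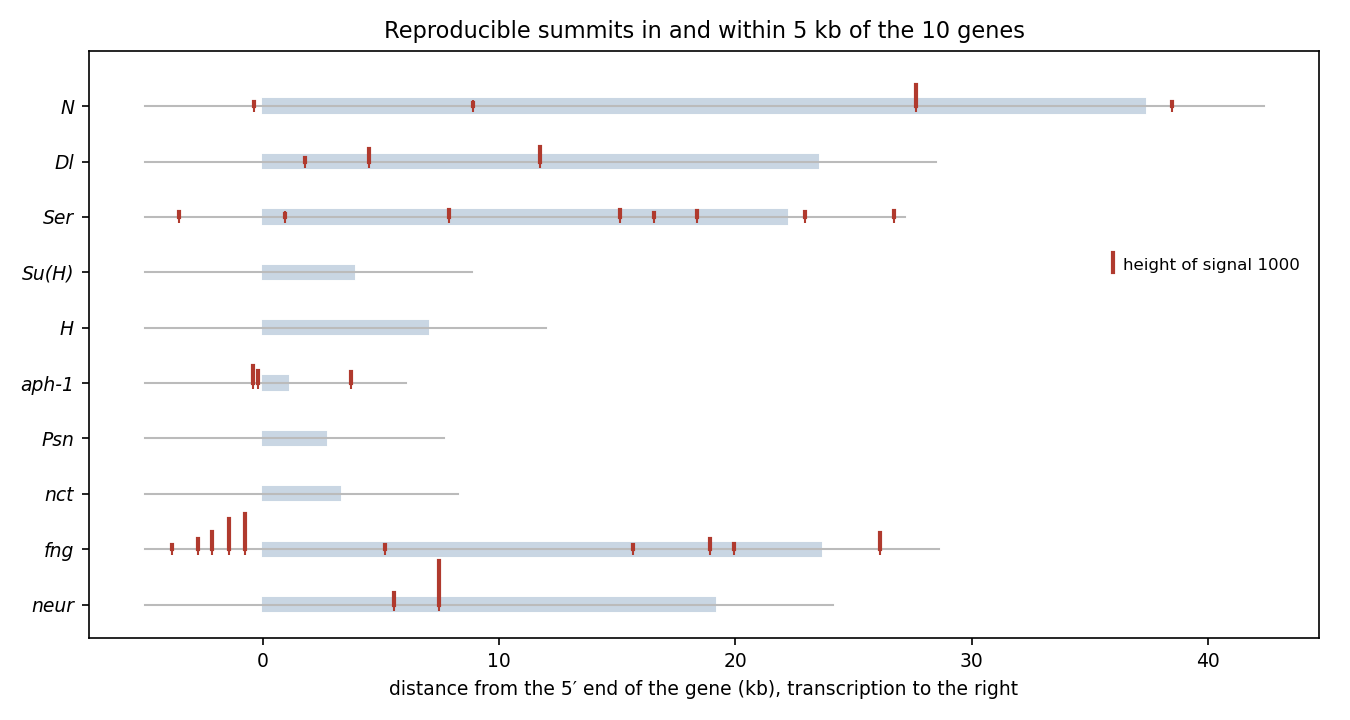
Position of the 30 reproducible summits along the 10 genes. The horizontal axis is the distance from the 5′ end of the gene in kb, with transcription to the right; pale bars are gene bodies, grey lines the 5 kb windows, and each red tick is a summit whose height above the gene line is its deposited signal (key: 1000). Summits of fng crowd upstream of the gene, the tallest tick lies inside neur, and Su(H), H, Psn and nct have none.

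Signals were compared between replicates as relative signals. A relative signal is the deposited signal of the nearest candidate peak within 200 bp of the summit in that replicate's list, divided by the median signal of all 30000 candidates of that list. Sequencing depth was unknown, as no read totals come with the lists used here. No test was run on these values. Each is given per replicate with its mean and standard deviation (SD), and all spreads are between samples labelled as biological replicates.

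N, the receptor gene (FBgn0004647), spans chrX:3134870-3172221 on the plus strand, a body of 37.35 kb. Its strongest summit lay at 3162521, in intron 5, 27651 bp from the annotated transcription start site (TSS). The relative signal there was 11.5, 11.9 and 14.0 in replicates 1, 2 and 3, with a mean of 12.5 ± 1.36 (SD, n = 3). The replicates were close to each other, and the summit ranked 884, 491 and 488 in their lists. The deposited signal was 1051, and the other 3 summits of N had 163.2 to 190.1, not far above the lowest signal of the reproducible list, 155.1.

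The promoter of N carried a weak summit, 388 bp upstream of the TSS. It lay in the last stretch of the annotated body of kirre, which encodes an immunoglobulin-family adhesion protein of myoblasts and ends just before N. Its relative signal was 1.73, 2.63 and 3.66 in replicates 1, 2 and 3, a mean of 2.67 ± 0.963 (SD, n = 3). Replicate 3 was thus highest and replicate 1 lowest, where the site ranked 8609 and fell outside the strongest 7248 candidates. A summit in intron 1 of N had 2.27, 1.65 and 1.42, a mean of 1.78 ± 0.444 (SD, n = 3). The summit downstream of N lay 220 bp from the TSS of CG18508 and had no candidate within 200 bp in replicate 1, with 1.48 and 1.85 in the other replicates.

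Dl, the gene of the ligand Delta (annotated as Delta, FBgn0000463), spans chr3R:19302731-19326217 on the minus strand. All 3 of its summits lay in introns, 1778, 4497 and 11732 bp downstream of the TSS, and Dl had none at its promoter. The farthest of them, in intron 3, was the strongest, with a relative signal of 7.84, 7.004 and 10.7 in replicates 1, 2 and 3 and a mean of 8.52 ± 1.95 (SD, n = 3). The summit 4497 bp into the gene, in intron 1, had 9.32, 5.37 and 7.42, a mean of 7.37 ± 1.98 (SD, n = 3). The ranges of these sites over replicates overlapped, so their order was not resolved. The site nearest to the TSS was weaker and varied most in proportion, with 3.51, 1.11 and 1.27. In replicates 2 and 3 another candidate within 200 bp of it was stronger, at 2.69 and 1.91.

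Ser, the gene of the ligand Serrate (FBgn0004197), spans chr3R:27172090-27194267 on the minus strand. Its 8 summits were spread over 30271 bp, with 5 in introns, 1 upstream and 2 downstream, at gaps of 1419 to 7252 bp. None lay within 500 bp of its TSSs, and the nearest was 653 bp away in intron 1. All were of low to moderate strength, with deposited signals of 168.3 to 365.2 and ranks of 2918 to 6650. The strongest, in intron 4 at 27186394, had a relative signal of 5.26, 3.24 and 4.60 in replicates 1, 2 and 3, a mean of 4.37 ± 1.03 (SD, n = 3). A summit in intron 8 at 27179142 followed with 3.29, 4.32 and 4.497, a mean of 4.04 ± 0.651 (SD, n = 3). Their replicate values overlapped. The farthest summit downstream, 4555 bp beyond the end of Ser and 1819 bp from the TSS of spn-D, a gene of meiotic recombination, had no candidate within 200 bp in replicate 1 and had 2.97 and 3.94 in the others. Just outside the 5 kb window, at 5200 bp, another summit had a signal of 429.2, above that of every summit assigned to Ser.

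fng, the gene of the glycosyltransferase Fringe (FBgn0011591), spans chr3L:20925891-20949512 on the minus strand. It had 5 summits upstream, 4 in introns and 1 downstream. The 4 upstream summits nearest to the gene lay 730, 1439, 2165 and 2749 bp from its TSS, at gaps of 584 to 726 bp, and their signal fell with distance, from 1775 to 1540, 847.3 and 492.4. No summit lay within 500 bp of the TSS itself.

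At the site 730 bp upstream of fng the relative signal was 30.4, 18.7 and 14.6 in replicates 1, 2 and 3, a mean of 21.2 ± 8.20 (SD, n = 3). At the site 1439 bp upstream it was 25.3, 14.9 and 14.9, a mean of 18.4 ± 6.004 (SD, n = 3). Replicate 1 was the highest at both, and the spread between replicates was larger than the difference between the sites. At 2165 bp upstream the values were 11.1, 6.93 and 12.1, a mean of 10.02 ± 2.72 (SD, n = 3), and there replicate 3 was highest. The site 2749 bp upstream had a mean of 6.16 ± 2.28 (SD, n = 3).

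The other summits of fng were farther from its TSS. The one downstream, 26129 bp from the 5′ end, had 9.03, 7.98 and 11.3 in replicates 1, 2 and 3, a mean of 9.45 ± 1.72 (SD, n = 3). Within intron 4, which is 7565 bp long, 3 summits lay closer to the TSS of CG10589, a gene nested in fng, than to that of fng. The strongest of these had 8.97, 4.51 and 3.85, a mean of 5.78 ± 2.78 (SD, n = 3). The summit in intron 1 had a signal of 200.0, and its relative signal of 1.04 in replicate 1 was the lowest of any of the 30 sites in any replicate. A stronger candidate lay 146 bp away in that replicate, at 2.10.

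neur, the gene of the ubiquitin ligase Neuralized (FBgn0002932), spans chr3R:9020348-9039471 on the minus strand and has an upstream TSS at 9039471 and an internal TSS at 9033731. Both of its summits lay near the internal TSS. The one downstream of that TSS was in intron 1 of all 5 annotated transcripts, the one upstream in intron 1 of the 3 longer ones. The summit at 9032021, 1710 bp downstream of the internal TSS, was the strongest of the 30. Its relative signal was 23.7, 24.05 and 30.4 in replicates 1, 2 and 3, a mean of 26.1 ± 3.76 (SD, n = 3), and it ranked 174, 83 and 58. The other summit, 205 bp upstream of the internal TSS, had 10.8, 6.10 and 5.17, a mean of 7.36 ± 3.03 (SD, n = 3). Its highest replicate was far below the lowest of the stronger site. No summit lay at the upstream TSS, where neur overlaps hyx, which encodes a subunit of the Paf1 transcription elongation complex.

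aph-1, the gene of a gamma-secretase subunit (FBgn0031458), spans chr2L:2766233-2767281 on the plus strand and is only 1.049 kb long. It lies head to head with Snx21, a sorting nexin gene, with 568 bp between their TSSs, and 1 broad peak between them holds 2 summits 201 bp apart. The first summit, 168 bp from the TSS of Snx21 and 400 bp from that of aph-1, had a relative signal of 14.3, 8.87 and 7.50 in replicates 1, 2 and 3, a mean of 10.2 ± 3.59 (SD, n = 3). The other, 199 bp from the TSS of aph-1, had 8.85, 3.30 and 3.07, a mean of 5.07 ± 3.28 (SD, n = 3). Replicate 1 was highest at both. With the starts of 2 genes this close, the sites cannot be given to aph-1 rather than Snx21. The third summit in the window lay 97 bp from a TSS of colt, a mitochondrial carnitine carrier gene, and 166 bp from one of HINT1, with a mean of 6.93 ± 2.39 (SD, n = 3).

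The order of the strongest sites by mean relative signal was neur, fng, N, aph-1, Dl and Ser. Neighbours in this order had overlapping intervals of mean ± SD in every case but the last, where Dl (8.52 ± 1.95) and Ser (4.37 ± 1.03) did not overlap.

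**Figure D2:**
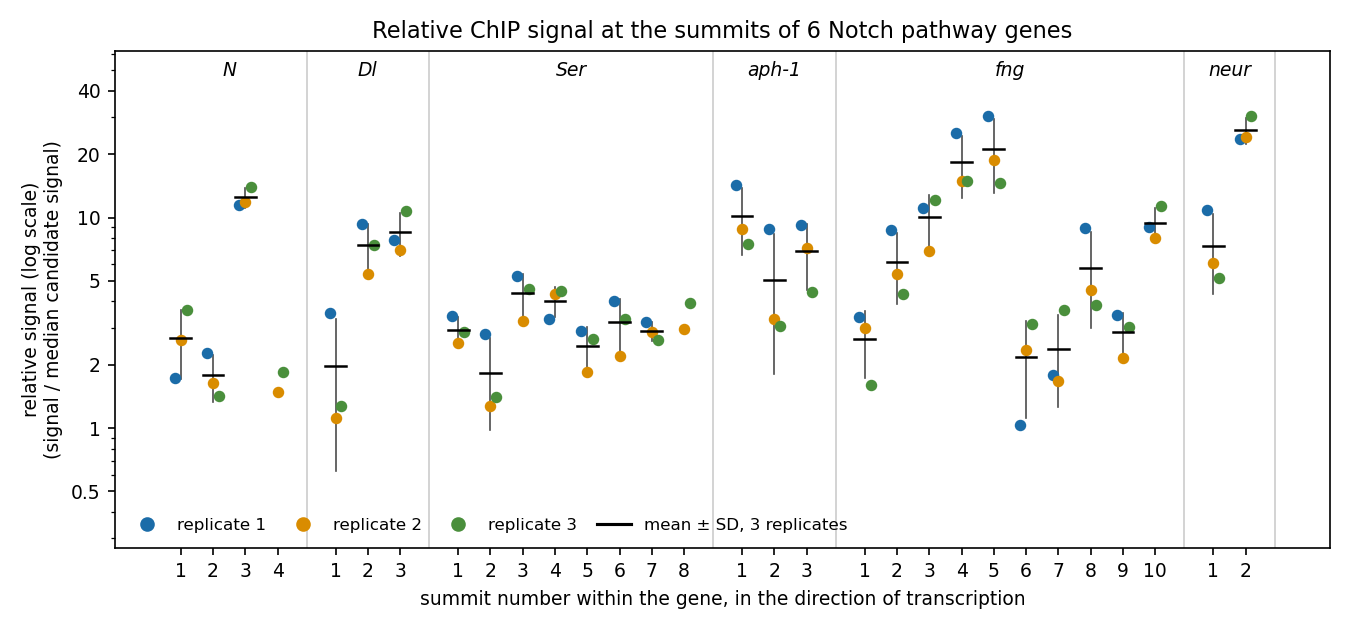
Relative signal of the 30 summits in each replicate. The vertical axis is the signal divided by the median candidate signal of the replicate, on a log scale; the horizontal axis numbers the summits of each gene in the direction of transcription; points are replicates, black dashes the mean and thin lines ± SD over 3 replicates (no mean where 1 replicate has no candidate). The stronger neur site lies at 23.7 to 30.4, the Ser sites reach 5.26 at most, and replicate 1 is often the highest point.

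Su(H), H, Psn and nct had no summit by this rule. Su(H), the DNA-binding protein of the pathway, is encoded at chr2L:15039488-15043334, and the nearest reproducible summit was 13522 bp away, in an intron nearest to the TSS of ck, a myosin gene. For H, the co-repressor at chr3R:20621938-20628915, the distance was 27272 bp, to a summit in an intron nearest to bon. Psn, the catalytic subunit of gamma-secretase at chr3L:20432468-20435156, had its nearest summit 9812 bp away at the promoter of CG5910. For nct at chr3R:24851601-24854869 (annotated as Nct) the distance was 38646 bp. So none of the 4 lay near the edge of the 5 kb window.

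The 4 genes also lacked any weaker candidate in their windows, in the pooled list and in each of the 3 replicate lists of 30000. Of all protein-coding genes, 65.8% had a pooled candidate by this rule, and 88.6% had a candidate in at least 1 of the 4 lists. All 4 genes are short, and among genes under 10 kb these shares were 61.6% and 86.9%. The 6 genes with summits had further candidates below the reproducible threshold, from 1 at aph-1 and 4 at neur to 20 at fng and 24 at N, with signals of at most 140.7.

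Gene length moved with these counts, and its part in them was not tested beyond a split at 10 kb. All 5 genes of 10 kb or longer (N, Dl, Ser, fng and neur) had a summit, beside 72.0% of all genes of that length. Of the 5 shorter genes only aph-1 did, beside 40.9%. Its sites are those it shares with neighbours. Per 10 kb of window, fng had 2.97 summits, aph-1 2.72 and Ser 2.49, all above the 90th percentile over protein-coding genes, 1.76. Dl with 0.896, N with 0.845 and neur with 0.687 were closer to the mean over all genes, 0.579. As many summits as fng or more were found at 0.674% of protein-coding genes, and as many as Ser or more at 1.08%. For N the share was 6.38%, for Dl and aph-1 11.5%, and for neur 23.1%. Thus neur, with the strongest site, did not stand out in number.

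**Figure D3:**
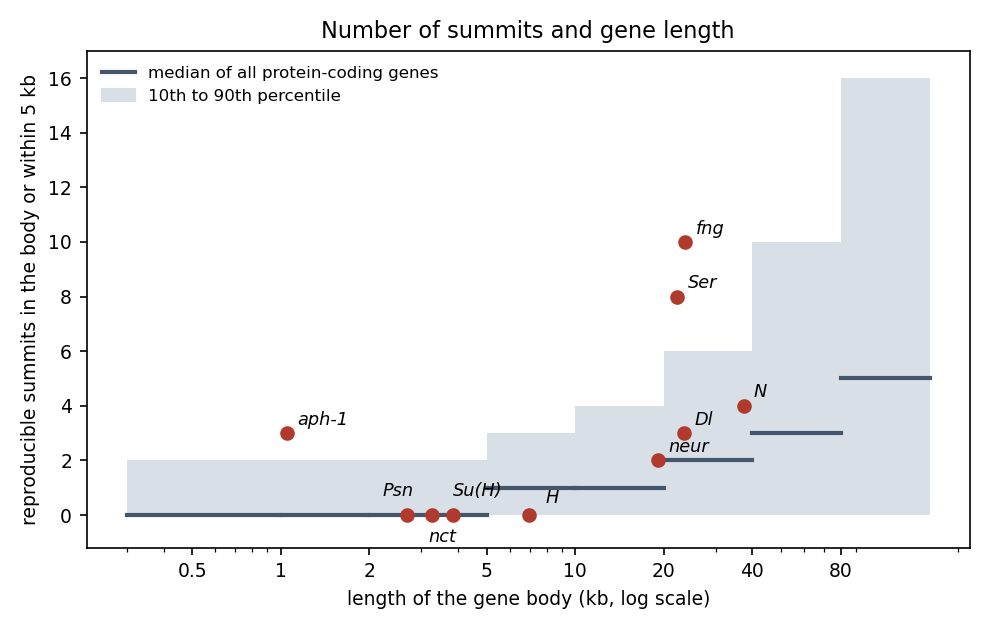
Number of reproducible summits in the body or within 5 kb against gene length. The horizontal axis is gene length in kb on a log scale and the vertical axis the number of summits; red points are the 10 genes, dark lines the median and grey boxes the 10th to 90th percentile of all protein-coding genes in each length class. fng, Ser and aph-1 lie above the boxes, while N, Dl and neur lie inside them.

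By position, 16 of the 30 summits lay in a gene body, 9 upstream and 5 downstream. By class, 15 were intronic (50% beside 48.1% of all reproducible summits), 9 intergenic (30% beside 21.2%) and 6 within 500 bp of a TSS of a protein-coding gene (20% beside 27.1%). The classes of coding exon, untranslated region and other exon held none. Sites within 500 bp of a TSS were classed as such first, so these classes do not show whether those 6 also lay in an exon. Of the 10 genes, N, aph-1 and neur had a summit within 500 bp of an own TSS, 3 in all, beside 15.4% of protein-coding genes. For 14 of the 30 summits the nearest TSS belonged to a different gene: spn-D for 5 sites of Ser, CG10589 for 4 of fng, CG18508 for 2 of N, and Snx21, colt and Sems for 1 each. Of the 30, 10 were over 5 kb away from every annotated TSS of a protein-coding gene, and starts of non-coding genes were not checked.

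In strength the 30 sites lay slightly above the middle of the list. Their median signal was 352.9 beside 303.8 over all reproducible summits, and their median relative signal 4.72 beside 3.67. Among the 724 summits of highest signal were 4 of them (13.3% beside 9.99%): the intron 5 site of N, both leading sites of fng and the stronger site of neur. In each replicate's own list, cut by signal to 7248 candidates, 22 of the 30 were found in all 3 replicates (73.3% beside 66.8%). The remaining 8 were 3 sites of N, 2 of Ser, 2 of fng and 1 of Dl, and every site of aph-1 and neur was found in all. In the full candidate lists 28 of 30 were present in all replicates (93.3% beside 93.6%). The same 6 genes had summits in each cut list, which held 28, 31 and 30 summits at them.

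Replicate 1 gave the highest relative signal at 19 of the 28 sites with a value in every replicate, replicate 3 at 9 and replicate 2 at 0. Over all reproducible summits these shares were 54.5%, 36.6% and 8.94%. At the sites of aph-1 replicate 1 led at all 3, while the strongest sites of N, Dl and neur were highest in replicate 3. The median coefficient of variation over replicates was 30.7% at the 28 sites, beside 25.2% over all reproducible summits. The part that library quality or depth plays in this order was not tested.

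The DNA under the sites was poorer in G and C than the DNA beside it. The 200 bp at the 30 summits had a mean GC content of 33.2%, and the 200 bp windows centred 500 bp to either side had 46.4%, a difference of -13.2 percentage points with an SD of 8.28 over sites. It was lower at the summit in 28 of 30. The summits at the same genes taken from the replicates' own lists gave -13.7, -12.9 and -10.7 points. Over all reproducible summits the difference was -7.89 points, from 43.2% to 35.3%, and it was lower at the summit in 5748 of 7248. At the strongest site of aph-1 GC content was 26.5% beside 53.3% in its flanks. The stronger neur site differed from it, with 36.5% at the summit and 38.5% in the flanks.

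**Figure D4:**
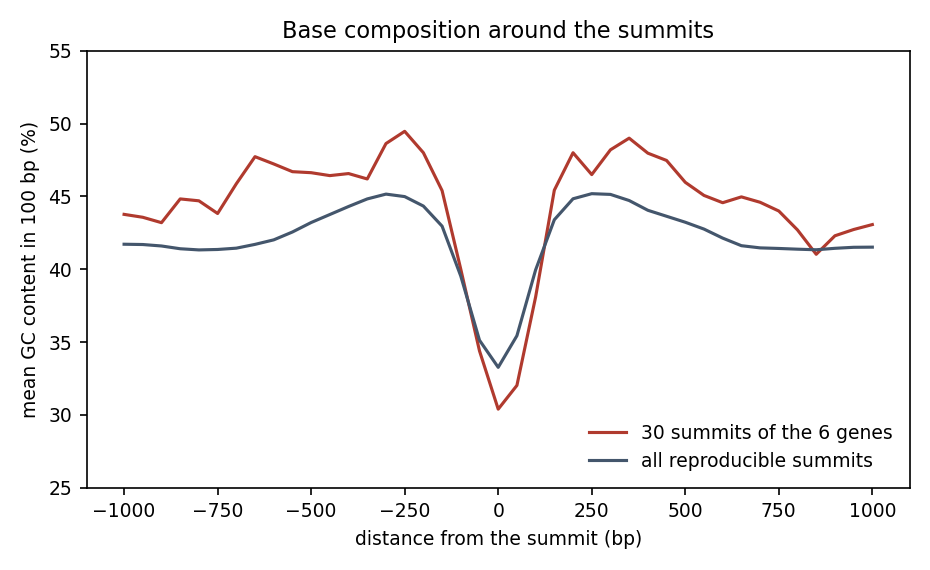
Mean GC content in 100 bp windows from 1000 bp before to 1000 bp after the summit. The vertical axis is GC content in percent and starts at 25; the horizontal axis is the distance from the summit in bp; the red line is the mean of the 30 summits at the 6 genes and the dark line that of all 7248 reproducible summits. Both lines dip at the summit, to 30.4% at the genes and 33.3% over all.

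Short words were searched on both strands of the 200 bp windows. The words most enriched at summits were taken from the 7218 reproducible summits away from these genes, as the 7-mers with the highest ratio of summit to flank windows holding them. CAGTGTA led, and was found in 8.06% of all summit windows and 1.69% of flanks. At the 30 sites it was found in 4 windows (13.3%), among them the fng site 2165 bp upstream shown above and 1 site downstream of Ser. The next words, CACTGAG and AGTGTAC, which overlap it in part, were in 7% and 4.18% of all summit windows and in 0 of the 30. The stretch CACTG, shared by 6 of the 10 leading words and picked after they were seen, was in 17 of the 30 windows (56.7%) and in 18 of their 60 flanks. Over all summits it was in 45.9% of windows and 30.6% of flanks. In the neur window shown above it occurred at the summit and 80 bp to its left, while the strongest sites of N and aph-1 had none. A match is a description of the letters and not of binding.

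Words of known factors gave few matches, at the 30 sites as over all summits. The core words bound by Su(H), GTGGGAA and GTGAGAA, were found once each, at 1 site in intron 9 of Ser and at the site downstream of fng. All summit windows held them in 2.24% and 2.59% of cases, and the 60 flanks of the 30 sites in 1 and 4 cases. The words TATCGATA (DRE), GGTCACAC (Motif 1), GAGAGAG (bound by the protein GAF), CAGGTAG (Zelda) and CACGTG (E-box) were in 0 of the 30 windows, and in 0, 1, 4, 0 and 2 of the 60 flanks. Their shares over all summit windows were 0.938%, 0.924%, 4.39%, 0.814% and 1.49%.

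Other genes of the pathway were counted from a list of 40, grouped by role. A summit in the body or within 5 kb was found at 29 of them (72.5%) and within 500 bp of an own TSS at 13 (32.5%), beside the shares over all genes of 45.3% and 15.4%. Windows of neighbouring genes overlap: the 11 E(spl) genes on the list, which lie in 1 cluster, shared 15 summits that count 35 times over genes. Over the 40 genes there were 82 distinct summits. Of the 11 genes of 10 kb or longer, 9 had a summit, beside 72.0% of all genes of that length. Of the 29 shorter ones 20 had, beside 40.9%, and outside the E(spl) cluster these were 10 of 18.

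Among genes that act on the receptor, O-fut1 and rumi, which modify Notch with sugars, each had 1 summit and none at the promoter. The metalloprotease gene kuz, whose product makes the cleavage before gamma-secretase, had 10 summits, and its relative Kul 4. At 89.27 kb kuz is long, and genes of 80 to 1000 kb had a median of 5 summits and a 90th percentile of 16. Kul, at 9.531 kb, was above the 90th percentile of 3 for genes of 5 to 10 kb. The promoter site of kuz had relative signals of 1.04, 2.85 and 3.21 in replicates 1, 2 and 3, a mean of 2.37 ± 1.16 (SD, n = 3). Kul had 2 promoter sites. The 1 of higher signal had 4.12, 4.98 and 1.66, a mean of 3.59 ± 1.73 (SD, n = 3). Tace and pen-2, the last a gamma-secretase subunit gene like aph-1, Psn and nct, had 0. Strong promoter sites lay at lgd and numb, genes of Notch trafficking and inhibition. At lgd the relative signal was 23.8, 17.8 and 19.99 in replicates 1, 2 and 3, a mean of 20.5 ± 3.05 (SD, n = 3). At numb it was 18.7, 9.97 and 13.8, a mean of 14.1 ± 4.35 (SD, n = 3). Nedd4, which encodes a ubiquitin ligase that acts on Notch, had a weak one of 2.00 ± 0.420 (SD, n = 3). Su(dx) and spdo had 0. Beside neur, the ligand ubiquitin ligase genes mib1 and mib2 had 4 and 1 summits, none at a promoter, and lqf had 0.

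Of the nuclear cofactor genes, all 5 had a summit; mam, Smr, nej and CtBP are 10 kb or longer, a length at which 72.0% of genes had one. The gene of the coactivator Mastermind, mam, had 14, the most of the 40. It is 69.15 kb long, and genes of 40 to 80 kb had a median of 3 summits and a 90th percentile of 10. The gene of the co-repressor Groucho, gro, had the strongest promoter site of its group, with 18.2, 17.7 and 20.5 in replicates 1, 2 and 3, a mean of 18.8 ± 1.51 (SD, n = 3). Of the 3 promoter sites of mam, the 1 of highest signal was weaker, at 4.03 ± 0.543 (SD, n = 3). So was the promoter site of the acetyltransferase gene nej, at 3.25 ± 1.55 (SD, n = 3). Of the E(spl) bHLH target genes 6 of 7 had a summit and 4 had one at the promoter. All 7 are shorter than 10 kb, a length at which 40.9% of genes had a summit, and 15.4% of all genes had one at the promoter. At E(spl)mdelta-HLH and E(spl)m3-HLH the promoter site of highest signal was far higher in replicate 1, at 22.5 and 22.9. Replicates 2 and 3 had 7.91 to 8.79 there. At E(spl)m7-HLH the values were closer, at 14.6, 10.9 and 11.8. Of the 8 Bearded family genes, whose products inhibit Neuralized, 5 had a summit and 0 had one at the promoter, beside the same shares. All of these 5 but Ocho lie in the E(spl) cluster, whose genes share summits, so this count is not separate from that of the bHLH genes. Brd, Tom and BobA, outside the cluster, had 0. Of 5 other genes, listed as targets or modifiers, 3 had a summit, beside 45.3% of all genes. Among the 5, ct, vg and sca are 10 kb or longer, a length at which 72.0% of genes had one. The wing margin gene ct had 8, with a promoter site of 4.98 ± 0.773 (SD, n = 3). At 70.43 kb, ct was below the 90th percentile of 10 for genes of 40 to 80 kb.

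Genes whose strongest site was most like that of neur over replicates were sought among 5508 genes, by the distance between log2 relative signals in the 3 replicates. The nearest, at a distance of 0.073, was an intronic summit on X shared by LPCAT and CG42395, with 24.0, 24.6 and 29.1 in replicates 1, 2 and 3. Next, at 0.12, was a promoter summit on 3R assigned to CG10979, Hat1, Hpf1 and PSMG1, with 25.3, 25.1 and 31.5. Over only 3 replicates this likeness describes the values alone.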

How the data were processed

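The samples were 3 ChIP-seq replicates of CG10669-GFP in whole prepupae, numbered by the labels. Per the file headers, the authors deposited, in dm6 coordinates, 30000 candidate peaks per replicate against a control file common to the replicates, 30000 from the pooled alignments, and 7248 from the irreproducible discovery rate (IDR) step. Not given in the sources used here were aligner, peak caller, their versions and the IDR cut-off. The signal that the authors deposited has a scale of its own in each list, so it was ranked or scaled only within a list. Signal medians of the candidates were 31.13, 21.03 and 31.4 in replicates 1, 2 and 3. The deposited −log10 q-value was tied at 4.236 for every reproducible peak and was not used. The sample descriptions name an input control, while the files hold peaks of an immunoprecipitation and were used as such. The labelled age does not suit a prepupa and was not used. Fragments were labelled as sonicated to 200 to 800 bp, which bounds how finely summits can be placed. The 7248 reproducible peaks are those pooled candidates that rank highest by signal, so replicates and list are not independent.

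Genes were protein-coding entries of Ensembl release 115 on 6 chromosomes. Delta and Nct were matched to Dl and nct by synonym. Summit positions were 1-based. Counts, distances, base composition and words were computed with Python 3.11.15, numpy 2.4.6 and pandas 2.3.3, and the figures with matplotlib 3.10.9. The counting of summits in gene windows and their matching by distance were tested on simulated summits, and the other steps were not. The sequence at 1 summit is not reported here. No p-values were computed, since there was 1 group and the genes, lists and words were chosen with earlier results of these data known. All 10 genes are named. Of the 40 other pathway genes, the up to 3 of each group with the highest promoter summit signal are named with values, along with genes that complete a count. The genes most like neur are the 3 nearest, ties included. Summit windows were set against flanks centred 500 bp away, and enriched words had to be in at least 1% of windows. The 57 alternatives listed at the start and 4 added after seeing the data were computed, and those that moved a value are given with the sensitivity of the results.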

Additional observations from a re-analysis of the deposited data

How the results depend on the processing

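Of 117 values recomputed under alternatives, 87 stayed within 1.5 times the count or within 1 SD of the value, 30 moved and 0 changed sign. The count of 6 of the 10 genes with a summit became 7 with a window of 10 kb, where Psn gained 1 summit, and 5 with the gene body only, where aph-1 dropped out. Split by length, the 6 were 1 of the 5 genes shorter than 10 kb and all 5 of the longer ones. The count over all 10 genes was 6 when any replicate was left out, that is, when a match was required only in the cut lists of the other replicates. The 30 summits became 16 with peaks above the median signal, with the gene body only, and with each summit given to its nearest TSS only. Leaving out replicates gave 22 to 24 summits. By gene, the gene body only left 2 summits at N, 5 at Ser and 4 at fng. A window of 2 kb left 6 at fng. The share of all protein-coding genes with a summit, 45.3%, became 32.7% with peaks above the median signal, 34.9% with peaks matched in all 3 replicates, 36.6% to 39.2% without 1 replicate, 31.8% and 61.1% with windows of 2 and 10 kb, 14.0% with the gene body only and 21.4% with the nearest TSS only. It was 40.9% among genes shorter than 10 kb and 72.0% among longer ones, a split added after seeing the data. Genes with a promoter summit numbered 5 in place of 3 with a TSS window of 1000 bp. The median relative signal of 4.72 became 1.25 when scaled by the median of the cut lists, which hold only strong candidates, and the order of the strongest sites was then the same, from 7.06 at neur to 1.17 at Ser. Without replicate 1, 2 or 3 the median was 3.69, 5.45 or 5.16. The 22 sites matched in all 3 cut lists numbered 21 or 22 with matching within 100 or 500 bp or by peak overlap, and 28 in all candidates of each replicate. Taking the strongest in place of the nearest candidate within 200 bp, also added after seeing the data, gave a median of 5.07. The GC difference became -15.9 points with windows of 100 bp. Without replicate 1 the leading fng site had 16.7 in place of 21.2. The order of the strongest sites changed when some replicates were left out. Dl (8.862) stood above aph-1 (8.185) without replicate 1, and fng (24.56) stood above neur (23.9) without replicate 3. No paired analysis was possible because there was 1 group.

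Depth is unknown, so whether the 4 genes without candidates lie below detection was not tested. One control file served every replicate, and how far it adds to their overlap was not tested. Each candidate list was capped at 30000, so weaker sites are outside it.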
